A study of Mus musculus with 2 samples.

Results

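The TRIM family was followed between mouse CD4 T cells cultured as Th9+IFNgamma or as Th9. Members were all genes with a RefSeq symbol of Trim plus a number and an optional letter, together with Pml, which is also known as TRIM19. Of 69 such symbols, 54 had a probe that carried their RefSeq accession, out of 18434 named genes on the array. These members were read by 85 probes, and 22 of them had several. The other 15 symbols, among them Trim5, Trim30c, Trim34b and Trim38, had no probe named by accession and were not analysed here.

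Both cultures held splenic CD4 T cells of wild type C57BL/6 mice, an inbred laboratory strain, sorted magnetically to a purity over 98%. Antibodies to the T cell receptor and CD28 stimulated the cells for 2 days, and culture went on for 3 days after that. Both cultures received 3 ng/ml of TGF-beta. Th9 cells also received 10 ng/ml of IL-4 and 1 µg/ml of an IFN-gamma blocking antibody, while Th9+IFNgamma cells received 3 ng/ml of IL-4 and 10 ng/ml of IFN-gamma. The cultures thus differed in IFN-gamma, in the antibody and in the dose of IL-4, and the parts of these cannot be told apart. Each culture was measured on 1 single-colour Agilent array. No value below has a replicate and no test between the cultures was possible. The labels do not say how many mice stood behind a culture.

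Most TRIM proteins have an N-terminal RING finger, which in most of them acts as an E3 ubiquitin ligase, followed by B-box and coiled-coil domains. Not all members have a RING, and Trim16, Trim29 and Trim44 were classed here as members without it. Members differ in their C-terminal part, most often a PRY-SPRY domain that binds other proteins. Many PRY-SPRY members act in defence against viruses and are known to be induced by interferons. Interferon-gamma is known to raise IRF1, a transcription factor that binds the interferon-stimulated response element (ISRE). Other members act in transcription, the cytoskeleton, muscle or neurons.

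Values are scaled signals, that is, linear intensities scaled so that the 75th percentile was equal on both arrays. They compare a gene between the arrays and never different genes. A probe counted as measured where the scanner software flagged it well above background, and a gene took the value of its brightest probe among those measured on both arrays. Differences are log2 of Th9+IFNgamma over Th9, and a fold divides the higher signal by the lower. A 2-fold difference served as the threshold for description. For 144 probes printed 10 times, the log2 difference of each spot was set against the mean of its probe, with outlier spots left out. These deviations had an SD of 0.14 and a central 95% from -0.27 to 0.27. The SD was 0.27 for signals below 64 and 0.043 above 1024. The interval thus pools dim and bright spots and is too wide for bright probes. This spread is that of spots, and variation between mice, cultures or labelling reactions is not in it.

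The promoter stretches of the measured members that hold an ISRE core are shown first. Of the 10 members higher in Th9+IFNgamma by 2-fold or more, 9 matched the promoter table. Of these 9, 6 held a core near their annotated start, beside 3.99% of all genes in that table. Trim2 and Trim5 also held a core but had no named probe, and they are not shown. The sequences are from RefSeq, build GRCm38.p6, 5′ to 3′ on the strand of the gene. Each stretch runs from 70 bases before to 30 after the start, except for Trim26, where it runs from position -180 to -81. Capitals mark matches to the ISRE core (GAAA, any 2 bases, then GAAA), searched on both strands, where overlapping matches appear as a single run.
Trim34a: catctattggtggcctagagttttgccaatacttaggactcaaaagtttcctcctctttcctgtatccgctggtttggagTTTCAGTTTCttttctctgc
Trim12a: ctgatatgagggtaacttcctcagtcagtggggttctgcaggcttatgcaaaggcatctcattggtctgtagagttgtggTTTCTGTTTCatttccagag
Trim12c: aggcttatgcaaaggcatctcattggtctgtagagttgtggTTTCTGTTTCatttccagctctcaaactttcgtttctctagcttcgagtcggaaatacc
Trim30a, upstream start: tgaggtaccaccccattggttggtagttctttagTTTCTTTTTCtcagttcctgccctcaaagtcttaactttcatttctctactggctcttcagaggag
Trim30a, downstream start: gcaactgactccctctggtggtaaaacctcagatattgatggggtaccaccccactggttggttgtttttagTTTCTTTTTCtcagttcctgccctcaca
Trim30d: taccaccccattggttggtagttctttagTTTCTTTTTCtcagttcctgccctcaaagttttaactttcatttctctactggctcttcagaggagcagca
Trim21: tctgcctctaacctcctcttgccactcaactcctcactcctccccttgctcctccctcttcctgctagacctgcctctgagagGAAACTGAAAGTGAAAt
Trim26: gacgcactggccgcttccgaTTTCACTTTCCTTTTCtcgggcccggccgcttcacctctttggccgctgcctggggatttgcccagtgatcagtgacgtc

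The stretches lie at chr7:104244387-104244486 on the plus strand for Trim34a, and on the minus strand at chr7:104315466-104315565 for Trim12a and chr7:104353320-104353419 for Trim12c. Those of Trim30a are at chr7:104465164-104465263 and chr7:104446096-104446195, that of Trim30d at chr7:104507820-104507919 and that of Trim21 at chr7:102565453-102565552, all on the minus strand. The Trim26 stretch is at chr17:36836966-36837065 on the plus strand. The core read TTTCTGTTTC in Trim12a and Trim12c, and TTTCTTTTTC in both Trim30a stretches and in Trim30d. Trim21 held GAAACTGAAA and GAAAGTGAAA, which overlap, on the strand of the gene, whereas the cores of the other 6 genes lie on the opposite strand.

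Of the 54 members with a named probe, 36 (66.7%) were measured on both arrays, beside 66.6% of all named genes. Of these 36 members, 10 (27.8%) were higher in Th9+IFNgamma by 2-fold or more, beside 5.15% of the 12272 genes measured on both arrays. At least 2-fold lower were 2 members (5.56%), beside 7.42% of all genes. The other 24 lay within 2-fold, and 13 of them within the pooled spot spread of -0.27 to 0.27. The median log2 difference of the members was 0.13, against -0.01 over all genes. The upper quartile was 1.08 for the members and 0.31 for all genes, while the lower quartiles were -0.27 and -0.36. The members thus differed from all genes at their upper end.

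**Figure D1:**
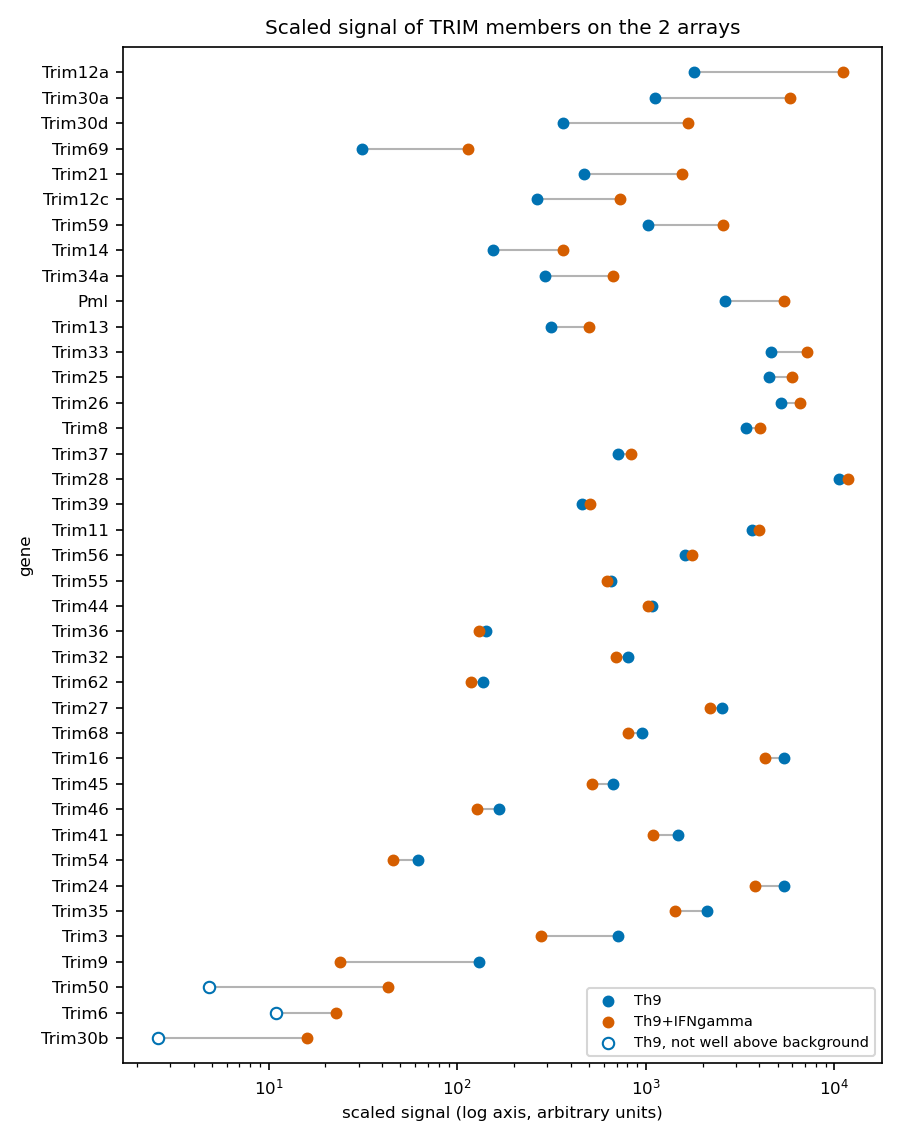
Scaled signal of each TRIM member on the Th9 array (blue) and the Th9+IFNgamma array (orange), on a log axis in arbitrary units, for the 36 members measured on both arrays and 3 measured on the Th9+IFNgamma array alone (open blue circles). Pairs of points are compared within a row only, and among members measured on both arrays the widest gap towards Th9+IFNgamma is that of Trim12a at the top, from 1805 to 11146.

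Trim12a, Trim30a and Trim30d, which lie in the Trim6 to Trim30d locus, had the highest log2 differences of the 36 members measured on both arrays, followed by Trim69 and Trim21 elsewhere. In the order of protein-coding genes in RefSeq, Trim6, Trim34a, Trim5, Trim12a, Trim34b, Trim12c, Trim30b, Trim30c, Trim30a and Trim30d lie next to each other on chromosome 7, with 1 other such gene among them. In primates the corresponding locus holds TRIM5, whose protein blocks incoming retroviruses. All 5 genes of the locus with a measured value exceeded 2-fold towards Th9+IFNgamma, with log2 differences from 1.21 to 2.63 and a median of 2.21. Of the 31 measured members elsewhere in the genome, 5 were (16.1%), and their median was -0.07. That share without the locus remained above the 5.15% of all genes, while the median was near that of all genes. With normexp background correction, Pml, Trim14 and Trim69 of the 5 members elsewhere fell under 2-fold, where 3.56% of all genes were higher.

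Trim12a, a gene related to primate TRIM5, gave a scaled signal of 11146 in Th9+IFNgamma and 1805 in Th9. It was 6.17-fold higher, and its second probe gave a log2 difference of 2.54, close to the 2.63 of the first. Trim12c, its close relative, gave 727 against 264, or 2.76-fold higher, by 1 probe. The paralogues of a pair thus both stood higher on the Th9+IFNgamma array, by different amounts.

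Trim30a, which encodes a protein known to restrain NF-kappaB signalling, gave 5790 in Th9+IFNgamma against 1113 in Th9. This was 5.20-fold higher, and its second probe gave a log2 difference of 2.23. Trim30d gave 1683 against 364, or 4.63-fold higher, with 2.44 by its second probe. All 4 probes of Trim30a and Trim30d exceeded a log2 difference of 2, so that the higher array did not depend on the probe.

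Trim34a, another gene of the locus, gave 674 against 291, or 2.32-fold higher. Its 3 probes gave 1.21, 1.11 and 0.88, so that the dimmest of them, at 63.8 against 34.7, did not reach 2-fold. Trim30b was measured on the Th9+IFNgamma array alone, at 15.9, and its bound of at least 1.27-fold stayed under the threshold. Trim6, a ligase known to make unanchored ubiquitin chains in interferon signalling, was also measured on that array alone, by 1 of its 5 probes at 22.8, with a bound of at least 1.81-fold, which became 1.05-fold with normexp and 2.05-fold, past the threshold, with loess. These bounds set the bright signal against 12.6, the lowest signal that was flagged well above background on the Th9 array, or the dim probe's own signal where that was higher. Both members were therefore close to background, and neither has a measured level in Th9.

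**Figure D2:**
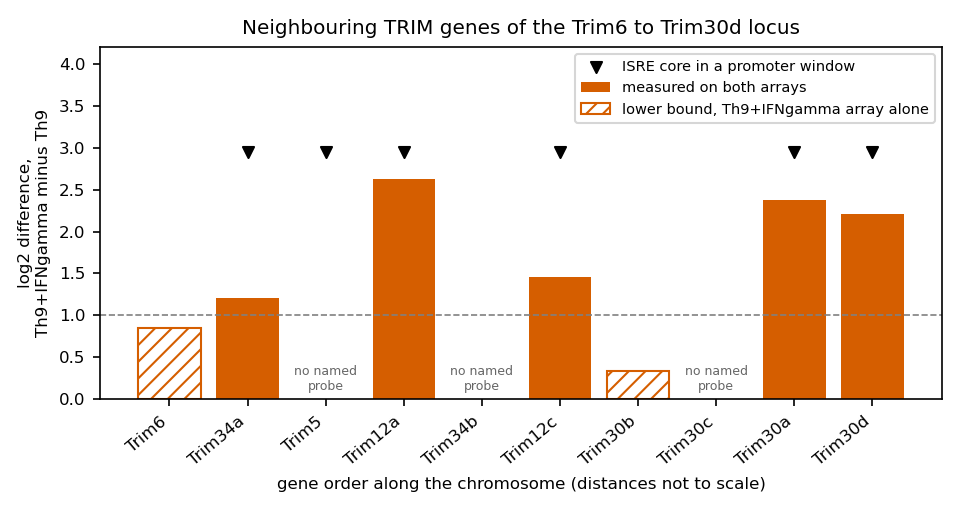
Log2 difference (Th9+IFNgamma minus Th9) of the 10 neighbouring TRIM genes in their order along the chromosome, with filled bars for measured values, hatched bars for lower bounds and triangles for genes with an ISRE core in a promoter window. The 5 filled bars all exceed the dashed 2-fold line, and each stands under a triangle.

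Promoter windows of these paralogues were alike in sequence, and they are not independent of each other. The longest identical run was 118 bases between the upstream Trim30a window and that of Trim30d, and it held the ISRE core. It was 71 bases between Trim12a and Trim12c, and 241 bases between Trim12a and Trim5, for which no probe was named. The transcripts may be alike too, and RNA of a near-identical relative can bind a probe, so that single members of the locus remain uncertain. How much of each signal came from a relative was not tested, as probe sequences were not used here.

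Among members elsewhere that are linked to interferon, Trim21, Trim14 and Pml stood higher in Th9+IFNgamma by 2-fold or more. Trim21, a cytosolic receptor for antibody-coated viruses, gave 1553 in Th9+IFNgamma against 472 in Th9, or 3.29-fold higher by its 1 probe. Trim14, which encodes an adaptor at mitochondria in RNA-virus sensing, gave 364 against 155, or 2.35-fold higher. With normexp background correction its log2 difference was 0.89 in place of 1.23, under the threshold. Pml, which builds the nuclear bodies named after it, gave 5383 against 2626, or 2.05-fold higher, and 1.16 on the log2 scale by its second probe. It stood at the threshold and fell under it with quantile normalization (0.996), loess on intensity (0.98) and normexp (0.98).

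Trim25, Trim26 and Trim56 lay within 2-fold. Trim25, the ligase known to activate the RNA sensor RIG-I, gave 5944 against 4522 by its brighter probe, a log2 difference of 0.39. Its dimmer probe gave 613 against 171, or 3.58-fold higher (1.84). The probes of Trim25 thus disagreed by more than any other pair of probes of a member measured on both arrays, and the mean of both (1.12) would place the gene past the threshold. Trim26, which lies in a run of neighbours with Trim15, Trim10, Trim40 and Trim31, gave 6604 against 5232, and its 3 probes gave 0.32 to 0.39. Trim56, known to act in cytosolic DNA and RNA sensing, gave 1749 against 1622 (0.11). This lay inside the pooled spot spread, while the SD of spots above 1024 was 0.043.

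A list of 16 members linked to interferon in background knowledge, among them all of these, had 12 members with a named probe, of which 11 were measured on both arrays. Past 2-fold stood 8 of the 11, all of them higher in Th9+IFNgamma, where 5.15% of all genes were higher. The log2 differences of the 11 had a median of 1.23, against -0.01 over all genes, and a range from 0.11 to 2.63. Of the 8, 5 are neighbours in the Trim6 to Trim30d locus and not independent cases. The others are Trim21, Trim14 and Pml, of which Trim14 and Pml fell under 2-fold with normexp. Among the other 25 measured members, 2 were higher and 2 lower by 2-fold or more, and the median was -0.21. The interferon-linked list was drawn up with earlier results of these data known, and its count is a description.

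**Figure D3:**
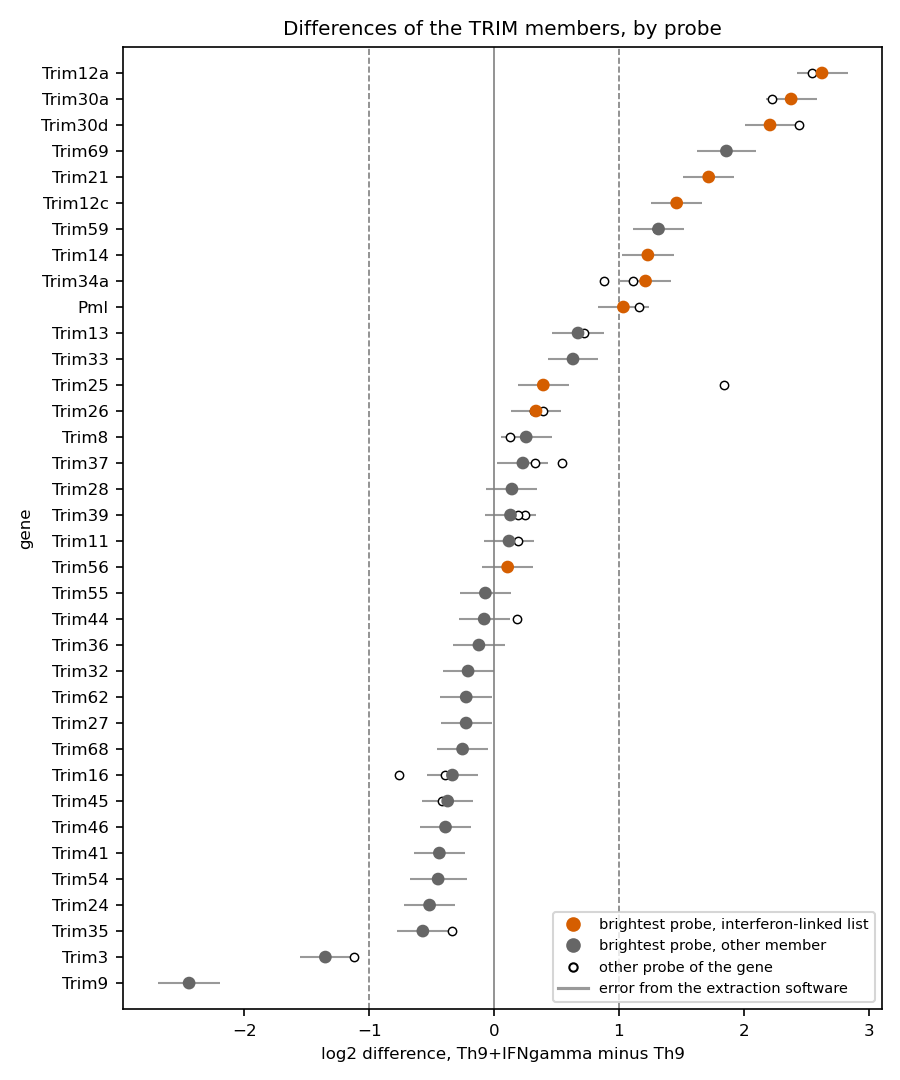
Log2 difference (Th9+IFNgamma minus Th9) of the 36 members measured on both arrays, with the brightest probe filled (orange for the interferon-linked list), other measured probes open, and bars for the error given by the extraction software (0.20 to 0.25). The dashed lines mark 2-fold, past which 8 orange and 2 grey points lie on the right and 2 grey points on the left, and the open point of Trim25 stands far from its filled one.

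Outside that list, Trim69 and Trim59 were higher in Th9+IFNgamma by 2-fold or more. Trim69, a PRY-SPRY gene, gave 114 against 31.4, or 3.63-fold higher by 1 dim probe, and 0.82 on the log2 scale with normexp, under the threshold. Trim59, which encodes a membrane-anchored member, gave 2558 against 1027, or 2.49-fold higher, and its second probe gave 1.30 beside 1.32. Trim50, known from gastric acid-secreting cells, was measured on the Th9+IFNgamma array alone, at 42.8 and at least 3.41-fold higher. Bounds past 2-fold were found for 33.8% of the 471 genes measured on that array alone. Normexp lowered the bound for Trim50 to 1.34-fold. Measured on the Th9 array alone were 0 members, beside 484 genes in all, of which 46.9% had a bound past 2-fold. Of the 3 members outside the list in this direction, Trim59 was the one that kept its size under normexp.

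Trim9 and Trim3, both best known from neurons, were lower in Th9+IFNgamma by 2-fold or more. Trim9, a COS-domain member that acts in netrin-guided axon growth, gave 23.9 in Th9+IFNgamma against 130 in Th9, or 5.43-fold lower. Its 1 probe was dim on the Th9+IFNgamma array, and normexp moved its log2 difference from -2.44 to -1.22. Trim3, an NHL-domain member, gave 279 against 712, or 2.55-fold lower, and its second probe gave -1.12 beside -1.35. The share of lower members, 5.56%, was near that of all genes.

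The members just inside the threshold were Pml (2.05-fold), Trim34a (2.32-fold) and Trim14 (2.35-fold). Just outside it were Trim13 (1.59-fold higher), Trim33 (1.55-fold higher) and Trim35 (1.48-fold lower). No measured member had a fold between those of Trim13 and Pml.

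Of the nuclear PHD-bromodomain members, which regulate transcription, the 3 measured on both arrays lay within 2-fold. Trim28, a corepressor recruited by zinc finger proteins, gave 11754 in Th9+IFNgamma against 10641 in Th9 (0.14). Trim33, known to bind Smad proteins downstream of TGF-beta, gave 7140 against 4607 (0.63). Trim24, a cofactor of nuclear receptors, gave 3799 against 5433 (-0.52). Trim66 stayed near background on both arrays. The differences of the measured members thus went in both directions, and those of Trim33 and Trim24 exceeded the pooled spot spread.

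By C-terminal class, the higher members were mostly in the PRY-SPRY class. This class took all members not placed in another, and their domains were not checked in sequence. Of 17 measured members of this class, 8 were higher and none was lower by 2-fold or more, beside 5.15% and 7.42% of all genes. The median log2 difference was 0.39. Of the 8, 5 are the neighbours of the Trim6 to Trim30d locus, which are not independent cases. The others are Trim14, Trim21 and Trim69, of which Trim14 and Trim69 fell under 2-fold with normexp. The members of this class within 2-fold and outside the interferon-linked list were Trim11, Trim27, Trim35, Trim39, Trim41, Trim62 and Trim68. Trim27, known to restrain potassium channel activity in CD4 T cells, gave 2181 against 2546 (-0.22). Trim39, an inhibitor of the anaphase-promoting complex, gave 505 against 460 (0.13) and Trim11 gave 3973 against 3656 (0.12). Trim35 had the lowest value of the class, -0.57. Placement in the PRY-SPRY class alone therefore did not mark the higher members.

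Members of the other classes that were measured on both arrays lay within 2-fold apart from Trim9, Trim3, Trim59 and Pml. Trim8, which is known to bind the cytokine signalling inhibitor SOCS1, gave 4055 against 3392 (0.26). Trim13, a ligase of the endoplasmic reticulum membrane, gave 500.3 against 313.9 (0.67), and its second probe gave 0.72. Trim37 gave 832 against 709 (0.23), with 0.55 by its second probe. Trim32, an NHL-domain ligase mutated in a muscular dystrophy, gave 697 against 805 (-0.21). Its second probe, near background, pointed the other way (18.4 against 6.75) and was measured on the Th9+IFNgamma array alone. Trim16 gave 4313 against 5433 (-0.33) and reached -0.76 by its dimmest probe, while Trim45, of the filamin class, gave -0.37. Trim44 was the 1 member of 18 with several probes measured on both arrays whose probes differed in sign, at -0.08 and 0.18. Both values lay inside the pooled spot spread. Trim36 and Trim46, placed in the same class as Trim9, gave -0.12 and -0.39, and the sarcomere members Trim54 and Trim55 gave -0.45 and -0.07.

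For a further 15 members, none of their 18 probes was flagged well above background on any array. They were Trim7, Trim10, Trim15, Trim17, Trim29, Trim31, Trim42, Trim52, Trim60, Trim61, Trim63, Trim65, Trim66, Trim67 and Trim80. By their brightest probe they reached at most 9.02 in Th9+IFNgamma and 12.4 in Th9, where the lowest signals well above background were 11.1 and 12.6. Trim63, which encodes the muscle atrophy ligase MuRF1, Trim10, known from red cell precursors, and Trim29, an epithelial member, are among them. Such signals give an upper bound and do not show whether these genes are silent.

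The ISRE core was searched in windows from 250 bases before to 50 after each annotated start. Of the 10 higher members, 9 matched the promoter table, and 6 of them (66.7%) held the core, namely Trim34a, Trim12a, Trim12c, Trim30a, Trim30d and Trim21. Of 26 other measured members, 18 matched, and 1 of them (5.56%) held it, namely Trim26. Over all 27025 genes of the table the share was 3.99%. The first base of the core lay from 41 before to 20 after the start in the higher members (-41 to 20), and at -160 and -154 in Trim26. The 5 locus genes among the 6 share sequence and are not independent cases. Pml, Trim59 and Trim69 held no match in their windows, and Trim14 is not among the windows used. The core of GAS, the gamma-activated sequence, TTCNNNGAA, which reads the same on both strands, matched in 0 of the 9 higher members, in 2 of the 18 others (11.1%) and in 9.55% of all genes. A match is a match of letters and not a bound site.

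**Figure D4:**
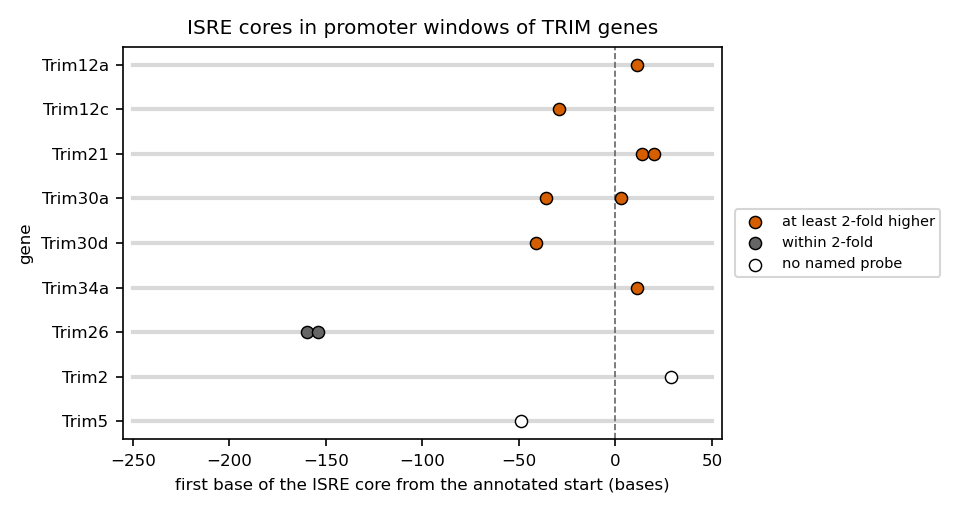
Position of the first base of each ISRE core, in bases from the annotated start, in promoter windows (grey lines, -250 to 50) of the 9 TRIM genes that hold one, with Trim30a's 2 starts drawn in 1 row. Cores of the higher members (orange) lie between -41 and 20, those of Trim26 (grey) at -160 and -154, and Trim2 and Trim5 (open) had no named probe.

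Partners of TRIM proteins were described from lists. The ISG15 conjugation genes, which attach a ubiquitin-like modifier, were all at least 2-fold higher in Th9+IFNgamma, 5 of 5, with a median of 1.86. They were Isg15 itself (2395 against 115, or 20.8-fold), Uba7, the activating enzyme (3.64-fold), Ube2l6, the conjugating enzyme (2.80-fold), Herc6, the ligase (2.26-fold), and Usp18, which removes the modifier (6.59-fold). In the RIG-I pathway around Trim25, 5 of 11 genes were higher and none was lower by 2-fold or more, and the median was 0.83. These were the RNA sensors Ddx58, which encodes RIG-I (2.17-fold), and Ifih1 (6.45-fold), the ligase Rnf135 at the threshold (436 against 218), the adaptor Mavs (2.80-fold) and Irf7 (8.33-fold). The 4 probes of Ddx58 gave log2 differences from 0.75 to 1.22, so that not all reached 2-fold. For Ifih1, 1 of 2 probes was measured on both arrays. Both lists hold genes known to be induced by interferons, and their members stood higher in larger shares than the 5.15% of all genes.

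The following partner lists lay within 2-fold, where 12.6% of all genes were 2-fold or more apart in either direction, so that a count of 0 in lists of this size is near the background. Of 10 measured PML body partners, 0 were at least 2-fold apart, with a median of 0.48, where Daxx, a histone chaperone, was 1.80-fold and Sp100, a body component, 1.77-fold higher. Of 8 ubiquitin-conjugating enzymes that work with TRIM RING domains, 0 were 2-fold apart, with a median of 0.02. The same held for 8 genes of the Trim28 repressor complex, with a median of 0.19. Among TRIM genes without such a symbol, Mid2 was measured on the Th9 array alone, at 18.7, while Mefv and Triml1 were measured on neither.

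Markers were set beside these values. All 7 T cell markers, Cd4 among them (502 in Th9+IFNgamma and 444 in Th9), were measured on both arrays and lay within 2-fold, with summed signals of 247751 and 192473. Summed signals of 4 B cell markers were 926 in Th9+IFNgamma and 1311 in Th9, those of 5 myeloid markers 91.0 and 247, and those of 2 NK cell markers 23.0 and 42.7, each lower in Th9+IFNgamma, and their part in the members' values was not tested. Of these, Adgre1, a macrophage gene, was at least 2-fold apart (25.8 against 186) and sets the direction of the myeloid sum, as Cd14 gave 26.4 against 21.3 and Csf1r 34.1 against 34.3. These sums add signals of different probes and follow the brightest of them, and Lyz2, Itgam and Ncr1 were flagged well above background on neither array. Cd8a gave 1338 and 1074. Of 3 plasmacytoid dendritic cell markers, Siglech was flagged on neither array, Tcf4 gave 232 against 442, and Bst2, itself known to be induced by interferons, gave 24453 against 12150 (2.01-fold), which sets the summed signals of 24687 and 12595. In bulk RNA, fewer cells of a type and less RNA per cell cannot be told apart.

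**Figure D5:**
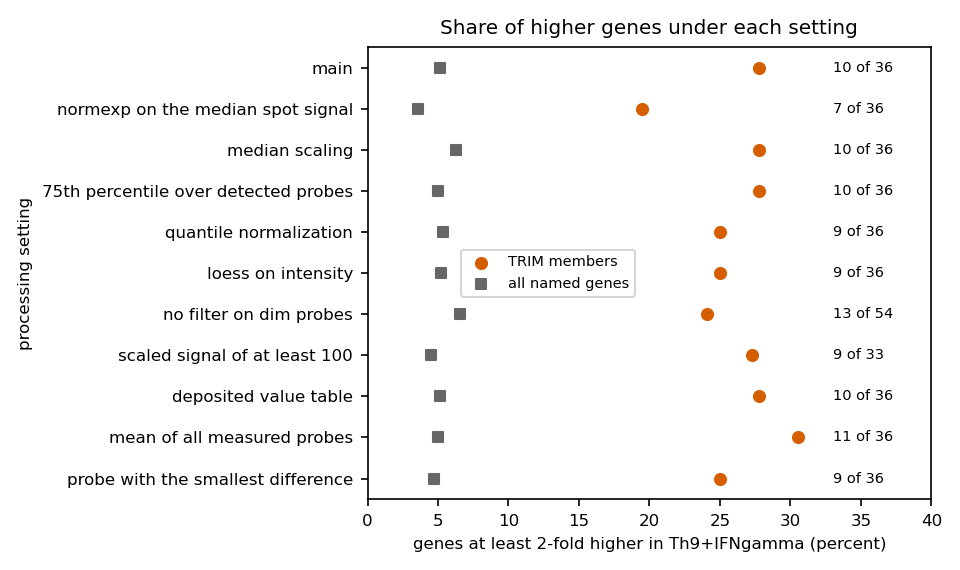
Percent of genes at least 2-fold higher in Th9+IFNgamma among the TRIM members (orange circles, counts at the right) and among all named genes (grey squares), under the setting used here (main) and 10 others. The members' share runs from 19.4 with normexp to 30.6 with the mean of all probes, and it lies above that of all genes in each row.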

How the data were processed

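RNA from 2 cultures was read on 2 single-colour arrays, 1 per culture condition, and groups were taken from that label. Per the file headers, the deposited intensity values come from Agilent Feature Extraction 10.7.3.1, background-subtracted and detrended within each array. The submitters' processing notes name version 10.7. Flags for spots well above background, saturated or outlying were deposited beside them, and 0 spots were saturated. Both arrays lay on 1 slide and were read in 1 scan. A table of log2 values deposited by the authors equalled log2 of the median processed signal of a probe minus a constant per array (SD of the offset 2.5e-07 and 2.2e-07), with column medians of -4.05 for Th9+IFNgamma and -3.93 for Th9, and served as an alternative.

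Here, control and outlier spots were left out, log2 signals were averaged per probe, and each array's 75th percentile (631.9 and 567.0) was brought to 598.6. Probes were named by matching the RefSeq accession, without version, to a GRCm38.p6 table (27050 of 41171 probes, 65.7%). The array grid names another build, so coordinates are given for promoter stretches only. With 1 array per condition, no test was run. The number of arrays limits the precision. Members, lists and the 2-fold rule were chosen with earlier results of these data known. Named in full were members at least 2-fold apart, with a bound of at least 2-fold, in the interferon-linked or PHD-bromodomain lists, or next to the threshold, and others by class. Mean signals for normexp are not among the columns used here, and median spot signals with an offset of 50 took their place (limma 3.58.1). The steps were tested on simulated data. Python 3.11.15, pandas 2.3.3 and statsmodels 0.14.6 were used. Of the gene lists described, 1 is not reported here.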

Additional observations from a re-analysis of the deposited data

How the results depend on the processing

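All 10 members at least 2-fold higher remained so with median scaling, a 75th percentile over detected probes and the deposited table. The same held with the mean of all probes and with no filter on dim probes. Median scaling and the deposited table raised all members by a shared constant, so that no higher member could be lost. The percentile over detected probes lowered them by a shared constant smaller than the margin of Pml. Without a filter the values of these 10 members were unchanged. Of these settings, the mean of all probes alone could thus move single higher members. Pml was lost with quantile normalization and with loess, Trim34a with the probe of smallest difference, Trim69 with signals of at least 100, and Pml, Trim14 and Trim69 with normexp, an alternative whose input was chosen after seeing the data. The counts ran from 7 to 13, and interferon-linked members from 6 to 9. With signals of at least 100, 1 member was lower in place of 2, since Trim9 was left out. Without a filter on dim probes the members' median was -0.069 in place of 0.13, over 54 members in place of 36, where that of all genes was -0.12. Over scalings and normalizations it ran from 0.07 to 0.24. Median scaling moved the median of all genes to 0.11, and members within about that distance of 0 have no settled direction. Over all genes, 437 were higher and 582 lower with normexp, 429 and 465 with signals of at least 100, 772 and 776 with median scaling, and 1205 and 1788 without a filter, against 632 and 910. No paired analysis was possible because each condition has 1 array, and for the same reason no array could be left out. Signals near background limit Trim9, Trim69, Trim6, Trim30b and Trim50.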
